A study of Caenorhabditis elegans with 6 samples.

Results

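Nerve cells of Caenorhabditis elegans are told apart by the transmitter they release, and each transmitter depends on a synthetic enzyme and a transporter that loads it into vesicles. The genes described here are 10 such genes of the GABA, acetylcholine, glutamate and monoamine systems, taken from a list of names. A probe belonged to a gene when the sequence name or accession it carries on the array is paired with that gene in the RefSeq gene table of assembly WBcel235. By this rule 8 of the 10 genes had probes, 21 of the 43603 probes on the array, and 19811 genes were matched in all. No probe was matched to unc-17 or cha-1. The signals came from whole young adults collected before reproduction, grown on agar with OP50 bacteria. The wild type was strain WTN2, and the mutant was strain RB1035, in which flcn-1 carries a mutant allele and which had been backcrossed 8 times to WTN2. The labels name neither the lesion of that allele nor the number of animals per sample. Each strain had 3 arrays, described as biological triplicates, with 1 Cy3-labelled RNA sample on each.

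GABA is made from glutamate by the decarboxylase UNC-25 and loaded into vesicles by UNC-47, which UNC-46 directs to the vesicle membrane. The homeodomain protein UNC-30 switches on unc-25 and unc-47 in the GABA motor neurons that relax body wall muscle. UNC-17 and CHA-1 do the corresponding work for acetylcholine, EAT-4 loads glutamate, and CAT-2, TPH-1 and TDC-1 begin the synthesis of dopamine, serotonin and the pair tyramine and octopamine.

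Levels are log2 signals after subtraction of each array's 75th percentile, and differences are the mutant mean minus the wild type mean on that scale. Probes differ in brightness for reasons unrelated to abundance, so a level is compared only with the same probe on other arrays. A gene is given by its brightest probe. The test was limma, two-sided, with Benjamini-Hochberg adjustment over all 19829 genes and unnamed probes tested and a threshold of 0.05 on the adjusted p. The 3 arrays per strain limit the precision. On each array 68.1% to 73.1% of probes were well above background. The first arrays of both strains shared slide 1, and the other 4 shared slide 2. The coefficient of variation among copies of a probe was 22.4% and 20.9% on mutants 2 and 3 and 8.19% to 10.9% elsewhere. The targeted gene flcn-1 averaged 0.36 ± 0.32 in wild type animals and 0.25 ± 0.32 in mutants (SD, n = 3 each), a difference of -0.11 with a 95% interval from -0.80 to 0.58 (limma adjusted p = 0.901). Since the labels do not place the lesion relative to the probe, this level does not check the strain labels.

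The comparison asks whether transmitter genes differ between the strains. None of the 8 genes passed the threshold by limma, where 0.101% of all features did, 0.0202% higher and 0.0807% lower in the mutant. By its brightest probe unc-30 was above background on mutant arrays alone and entered the test through them, so the counts that follow are over the other 7 genes. At an unadjusted p under 0.05 there was 1 of 7, unc-25, with a higher mean in the mutant, where 7.24% of all features were past it, 2.9% higher and 4.34% lower. The mean was higher in the mutant for 6 of the 7 genes, against 50.3% of all features, and the median difference was 0.22, against 0.00 over all features. With unc-30 included the median was 0.25, and it moved to 0.15 without mutant 1, 0.40 without wild type 3 and 0.44 without mutant 3. By the deposited log2 values, again with unc-30, 5 of 8 were higher and the median was 0.14. There eat-4, tph-1 and tdc-1 were slightly lower, by -0.034, -0.033 and -0.011. In 2 genes, unc-25 and cat-2, every mutant array lay above every wild type array, against 5.22% of all features, and in none did every mutant array lie below, against 6.74%. By transmitter, the 4 GABA genes had a median difference of 0.48 (0.22 over the 3 other than unc-30), the 3 monoamine genes 0.29 (-0.01 with the series table), and the glutamate gene 0.01 (-0.03 with the series table). RNA came from whole animals, so fewer or more cells of a type and less or more RNA per cell cannot be told apart.

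**Figure D1:**
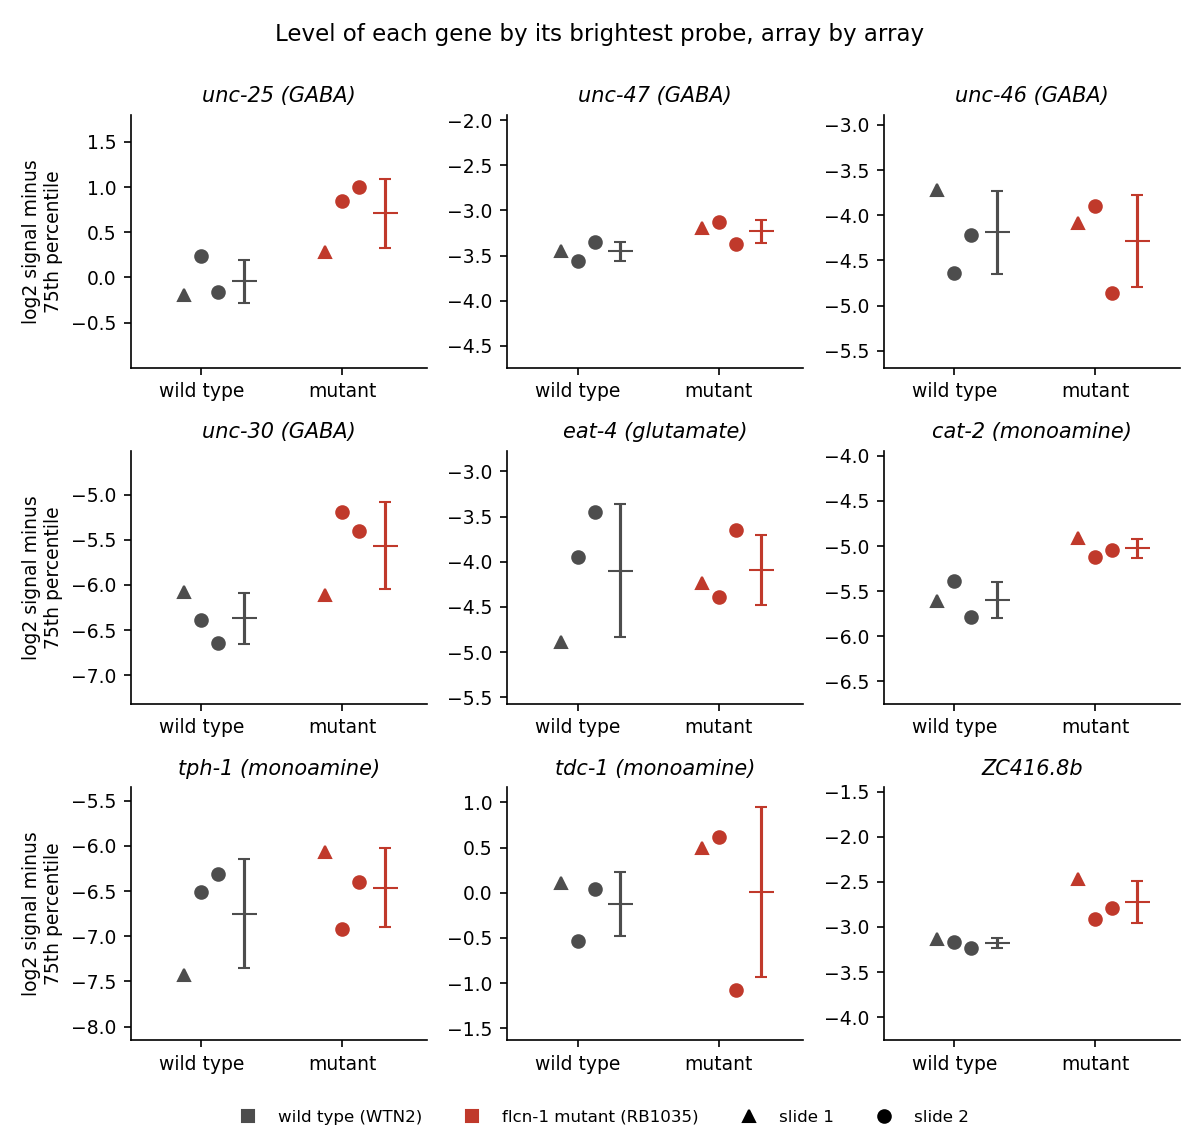
Level of each gene by its brightest probe on each array (log2 signal minus the array's 75th percentile; every panel spans the same height). Triangles are slide 1 and circles slide 2, grey wild type and red mutant, with bars for mean and SD (n = 3). The mutant arrays lie above all wild type arrays for unc-25, cat-2 and ZC416.8b, and the strains overlap in the other panels.

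The gene unc-25 on chromosome III (Y37D8A.23 on the array) encodes glutamate decarboxylase, which makes GABA, and all 3 of its probes separated the strains. Its level by the brightest probe was -0.19, 0.23 and -0.16 on the 3 wild type arrays in order and 0.28, 0.85 and 1.00 on the 3 mutant arrays. The lowest mutant array, mutant 1, lay just above the highest wild type array, wild type 2. The means were -0.04 ± 0.24 and 0.71 ± 0.38 (SD, n = 3 each), a difference of 0.75 ± 0.30 (SE) or 1.68-fold, with a 95% interval from 1.04-fold to 2.71-fold. The limma p was 0.0370 before adjustment and 0.650 after it. Processed signal intensities of this probe were 1482 to 1946 in wild type animals and 2940 to 3862 in the mutant before scaling, and it was well above background on every array. The other 2 unc-25 probes gave differences of 0.60 and 0.52, and for each of the 3 probes all mutant arrays lay above all wild type arrays. One of them read -0.22, -0.24 and -0.35 in wild type animals and 0.14, 0.41 and 0.21 in the mutant. Within slide 1 the brightest probe differed by 0.47 and within slide 2 by 0.89. The 3 probes report the same transcript pool on the same arrays and are not replicates of the strain.

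The vesicular GABA transporter gene unc-47, on chromosome III and with 1 probe, varied little. It read -3.45, -3.56 and -3.35 in wild type animals and -3.19, -3.13 and -3.38 in the mutant. Mutant 3 lay below the highest wild type array, wild type 3, so the strains overlapped. The difference was 0.22, or 1.17-fold, with a 95% interval from 0.78-fold to 1.74-fold (limma adjusted p = 0.760), and it was 0.26 on slide 1 and 0.20 on slide 2. The interval includes no difference as well as the 1.68-fold value found for unc-25.

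The gene unc-46 on chromosome V, whose product is a LAMP-like membrane protein that places UNC-47 on vesicles, had 4 probes that did not read alike. The brightest read -3.72, -4.64 and -4.22 in wild type animals and -4.08, -3.90 and -4.86 in the mutant, with the strains interleaved. It differed by -0.09, or 0.94-fold, with a 95% interval from 0.53-fold to 1.68-fold (limma adjusted p = 0.935). The other 3 probes differed by -0.37, -0.42 and -0.39. On slide 1 those 3 were higher in the mutant, by 0.16, 0.51 and 0.45, and on slide 2 they differed by -0.64, -0.89 and -0.81, whereas the brightest differed by -0.37 and 0.05. With normexp background correction of the median spot signals, all 4 turned positive, at 0.32 for the brightest and 0.22, 0.38 and 0.35 for the others, in a setting where the median over all features was itself 0.18. No direction is given for unc-46.

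The regulator gene unc-30, on chromosome IV, was dim. Its 6 probes had processed signal intensities of 11.7 to 25.2 in wild type animals and 20.8 to 58.7 in the mutant. The brightest probe was well above background on 0 wild type and 3 mutant arrays. It read -6.08, -6.38 and -6.64 in wild type animals and -6.11, -5.19 and -5.41 in the mutant, so that mutant 1 lay beside the wild type arrays and mutants 2 and 3 stood above them. The measured means were -6.37 ± 0.28 and -5.57 ± 0.48 (SD, n = 3 each). The measured difference was 0.80, or 1.74-fold, with a 95% interval from 1.03-fold to 2.94-fold (limma adjusted p = 0.650). The probe entered the fit only through the mutant arrays, so this p and interval are no fair test of the gene. With the series table the difference was 0.52. A bound was taken, using on each wild type array the dimmest signal among detected probes or the probe's own signal where that was higher. That bound equalled the measured 1.74-fold, so it sets no minimum. All 6 probes were higher in the mutant, by 0.46 to 1.05, each well above background on 3 mutant arrays and on 0 to 2 wild type arrays. For 1 of the 6 every mutant array lay above every wild type array, at -7.14, -6.93 and -7.15 against -6.64, -6.07 and -6.05. On slide 1 the brightest probe differed by -0.03 and the other 5 by 0.31 to 0.87, and on slide 2 the brightest differed by 1.22 and the other 5 by 0.25 to 1.28.

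**Figure D2:**
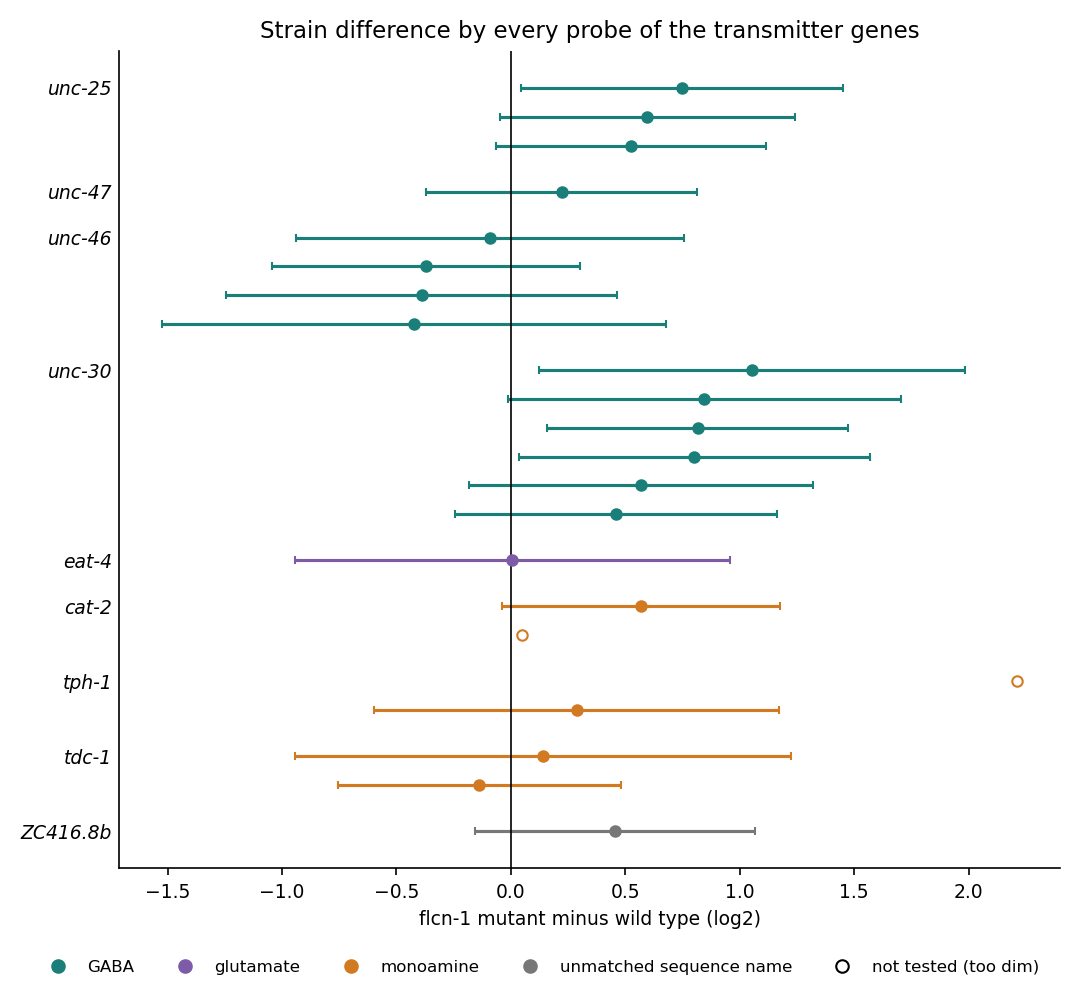
Difference between strains for every probe of the transmitter genes and for ZC416.8b (log2, mutant minus wild type; bars are 95% limma intervals, open circles were too dim to be tested). The 3 unc-25 and 6 unc-30 probes lie between 0.46 and 1.05, the 4 unc-46 probes between -0.42 and -0.09, and most intervals include 0.

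Over all transmitter genes 19 of the 21 probes were bright enough to be tested, and none passed the threshold in the fit over 31224 probes, against 0.0929% of all probes, 0.0256% higher and 0.0673% lower in the mutant. The 6 unc-30 probes were above background on 3 mutant arrays and at most 2 wild type arrays. They passed the filter through the mutant arrays and are left out of the counts that follow. At an unadjusted p under 0.05 there was 1 of the 3 unc-25 probes and no other. Of all probes 6.83% were past it, 2.93% higher and 3.9% lower. The mean was higher in the mutant for 3 of 3 unc-25, 0 of 4 unc-46 and 1 of 2 tdc-1 probes. It was also higher for the single tested probes of unc-47, eat-4, cat-2 and tph-1, against 52.8% of all probes. Every mutant array lay above every wild type array for the 3 unc-25 probes and the tested cat-2 probe, against 5.21% of all probes. Every mutant array lay below for none, against 6.17%. Probes of a gene share its transcripts, so these counts rest on fewer genes than probes.

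The vesicular glutamate transporter gene eat-4, on chromosome III and with 1 probe, differed more between arrays of a strain than between strains. It read -4.89, -3.94 and -3.45 in wild type animals and -4.24, -4.39 and -3.65 in the mutant. The means were -4.10 ± 0.73 and -4.09 ± 0.39 (SD, n = 3 each), a difference of 0.01, with a 95% interval from 0.52-fold to 1.93-fold (limma adjusted p = 0.996). Slide 1 gave 0.66 and slide 2 gave -0.32.

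Among the monoamine genes, cat-2 had the widest separation relative to its spread. The gene lies on chromosome II and encodes tyrosine hydroxylase, which makes the dopamine precursor. Its tested probe read -5.61, -5.39 and -5.78 in wild type animals and -4.91, -5.12 and -5.04 in the mutant, without overlap. The means were -5.60 ± 0.20 and -5.03 ± 0.10 (SD, n = 3 each), a difference of 0.57 or 1.48-fold, with a 95% interval from 0.98-fold to 2.24-fold. The limma p was 0.0576 before adjustment and 0.650 after it. It was 0.70 on slide 1 and 0.50 on slide 2. The signal was modest, with processed intensities of 34.7 to 39.5 in wild type animals and 56.8 to 80.5 in the mutant, although well above background on all 6 arrays. A second cat-2 probe reached well above background on no array and was not tested.

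The tryptophan hydroxylase gene tph-1, also on chromosome II, which starts serotonin synthesis, was near the limit of detection. Its tested probe was well above background on 2 arrays of each strain and read -7.43, -6.50 and -6.31 in wild type animals and -6.06, -6.92 and -6.39 in the mutant, with the strains interleaved. The difference was 0.29, or 1.22-fold, with a 95% interval from 0.66-fold to 2.24-fold (limma adjusted p = 0.791). It was 1.37 on slide 1, where the dim wild type 1 stood alone, and -0.25 on slide 2. The second tph-1 probe was well above background on mutants 2 and 3 only and was not tested. It read -6.93, -8.80 and -9.19 in wild type animals and -7.19, -6.07 and -5.01 in the mutant, so the 2 probes of this gene did not order the arrays alike.

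The tyrosine decarboxylase gene tdc-1, on chromosome II, which makes tyramine, the precursor of octopamine, was bright and uneven. Its brightest probe read 0.11, -0.54 and 0.04 in wild type animals and 0.50, 0.61 and -1.08 in the mutant. Mutants 1 and 2 were above all wild type arrays and mutant 3 was below them. The difference was 0.14, with a 95% interval from 0.52-fold to 2.32-fold (limma adjusted p = 0.922). The second tdc-1 probe read -3.01, -3.02 and -2.71 in wild type animals and -2.85, -3.08 and -3.22 in the mutant, a difference of -0.14 (limma adjusted p = 0.865). Mutant 3 was the lowest array by both probes.

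For the acetylcholine genes unc-17 and cha-1 no level can be given under their names. The gene table lists them on chromosome IV without a clone-based sequence name. The array carries 2 probes with the clone-based name ZC416.8, with the suffixes a and b, which that table does not pair with any gene. They are given here under the array's names. ZC416.8b read -3.13, -3.17 and -3.24 in wild type animals and -2.47, -2.91 and -2.79 in the mutant, without overlap. The means were -3.18 ± 0.05 and -2.72 ± 0.23 (SD, n = 3 each), a difference of 0.46 or 1.37-fold, with a 95% interval from 0.91-fold to 2.07-fold (limma adjusted p = 0.651). Slide 1 gave 0.67 and slide 2 gave 0.35. ZC416.8a reached well above background on no array.

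Whether transmitter genes differed from one another was tested on the ratio of their signals within each array. Of 21 pairs of the 7 genes above background in both strains, none reached the smallest two-sided p that an exact permutation test of 3 against 3 arrays allows, 0.1. The smallest exact p was 0.2 and the smallest adjusted over the 21 pairs was 0.84. The ratio of unc-25 to unc-47 was higher in the mutant by 0.53 (exact permutation p = 0.2), that of unc-25 to unc-46 by 0.84 (p = 0.3, exact), and that of unc-25 to eat-4 by 0.74 (p = 0.3, exact). No ratio is given for unc-30, whose brightest probe was well above background on no wild type array. The design could not have called any of the pairs at 0.05.

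The genes around these enzymes and transporters were grouped by transmitter into receptors, transporters, breakdown enzymes and other synthetic enzymes. Of 87 such genes tested none passed the threshold by limma, against 0.101% of all features. Of 11 GABA partners 7 were higher in the mutant, with a median difference of 0.08. Of 22 acetylcholine partners 15 were higher, with a median of 0.23, of 26 glutamate partners 20 (median 0.15), and of 28 monoamine partners 21 (median 0.17). Over all features 50.3% were higher. The GABA partner median has no settled sign: without wild type 1 it was -0.05, with 5 of 11 higher, and without wild type 2 it was 0.27. The glutamate partner median was 0.26 on slide 1 and 0.07 on slide 2. Under quantile normalization, median centring, normexp and the series table the 4 medians were above 0, and relative to the normexp median of all features they were 0.21, 0.16, 0.21 and 0.16. Strain separation without overlap was seen, always with the mutant above, in 0, 5, 1 and 4 members of the 4 lists in that order. Over all features 5.22% had every mutant array above and 6.74% every mutant array below, and 0 of 11 and 1 of 26 are at or under the first share.

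On the receiving side of GABA synapses, unc-49, which encodes the GABA receptor of body wall muscle, had the smallest p. It read -2.14, -1.28 and -1.67 in wild type animals and -1.46, -0.26 and -0.32 in the mutant, where mutant 1 lay among the wild type arrays. The difference was 1.02 (95% interval 0.10 to 1.94, limma adjusted p = 0.650), and its 10 tested probes gave 0.61 to 1.44. Body wall muscle markers were followed on the same arrays. All 9 were higher in the mutant by the mean, with a median of 1.18, and their median deviation ran from -1.59 on wild type 3 to 1.35 on mutant 2, with the strains overlapping. Their median difference was 0.15 on slide 1 and 1.85 on slide 2. Their part in the unc-49 value was not tested. The plasma membrane GABA transporter gene snf-11 differed by 0.48, the excitatory GABA receptor gene exp-1 by 0.41 and the GABA transaminase gene gta-1 by -0.28 (limma adjusted p = 0.652, 0.679 and 0.719).

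Among acetylcholine partners, acc-3, for an acetylcholine-gated chloride channel, read -6.28, -5.37 and -5.14 in wild type animals and -3.78, -4.38 and -4.85 in the mutant. It differed by 1.26 (limma adjusted p = 0.650), by 2.50 on slide 1 and by 0.64 on slide 2. The muscarinic receptor gene gar-3 differed by 0.66, and the acetylcholinesterase genes ace-1 and ace-3 by 0.53 and 1.02 (limma adjusted p = 0.650 for each). The dim ace-3 was well above background on 2 wild type arrays, and leaving out 1 array gave 0.57 to 1.45. The arrays of the strains did not overlap for acc-3, gar-3 and ace-1. These genes are named for the smallest p in the list, which favours separated arrays. Every mutant array lay above in 5 of the 22 list members and in 5.22% of all features. The choline transporter gene cho-1, which supplies choline for synthesis and is named for its role after its value had been seen, varied from -6.90 to -3.56 within the wild type and differed by 0.66 (limma adjusted p = 0.752).

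Among glutamate partners the glutamate transporter gene glt-7 read -3.42, -3.83 and -3.82 in wild type animals and -3.26, -2.76 and -2.63 in the mutant, without overlap, and differed by 0.81 (limma adjusted p = 0.650), by 0.16 on slide 1 and by 1.13 on slide 2. The glutamate receptor cofactor gene sol-1 differed by 0.51, the transporter gene glt-1 by 0.49 with its brightest and 0.01 with its other probe, and the glutamate-gated chloride channel gene glc-2 by 0.33. Among monoamine partners the serotonin receptor gene ser-7 differed by 1.02 (limma adjusted p = 0.650), by 0.26 on slide 1 and by 1.39 on slide 2, with the strains overlapping. The dopamine receptor gene dop-2, the tyramine receptor gene tyra-2 and dop-5 differed by 0.57, 0.57 and 0.59. For dop-2, tyra-2 and dop-5 every mutant array lay above every wild type array. The glutamate and monoamine partners in this paragraph are named for the smallest p in their list, which favours separated arrays. Every mutant array lay above in 1 of 26 glutamate partners, 4 of 28 monoamine partners and 5.22% of all features.

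Further monoamine genes are named for their roles after their values had been seen. The aromatic amino acid decarboxylase gene bas-1, which acts after CAT-2 and TPH-1, read 0.70, 0.46 and 0.88 in wild type animals and 0.90, 0.49 and 0.88 in the mutant, a difference of 0.08 with a 95% interval from -0.55 to 0.70 (limma adjusted p = 0.925). The GTP cyclohydrolase gene cat-4, which supplies the cofactor of both hydroxylases, differed by -0.51 (95% interval -1.21 to 0.19, limma adjusted p = 0.653), by 0.08 on slide 1 and by -0.80 on slide 2. The dopamine reuptake transporter gene dat-1 differed by 0.30, but by 0.05 without wild type 1 and 0.59 without wild type 3. The octopamine synthesis gene tbh-1 differed by 0.19, but by 0.08 without mutant 3, 0.13 without wild type 2 and 0.30 without mutant 2. The vesicular monoamine transporter gene cat-1 was well above background on 1 wild type and 3 mutant arrays. It read -9.02, -6.41 and -6.67 in wild type animals and -6.45, -6.02 and -5.97 in the mutant, with wild type 1 far below the rest. The measured difference of 1.22 (95% interval -0.22 to 2.67) was 0.40 without wild type 1 and 0.30 with the series table, so no size is given for cat-1. No difference between these genes and cat-2 was tested.

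**Figure D3:**
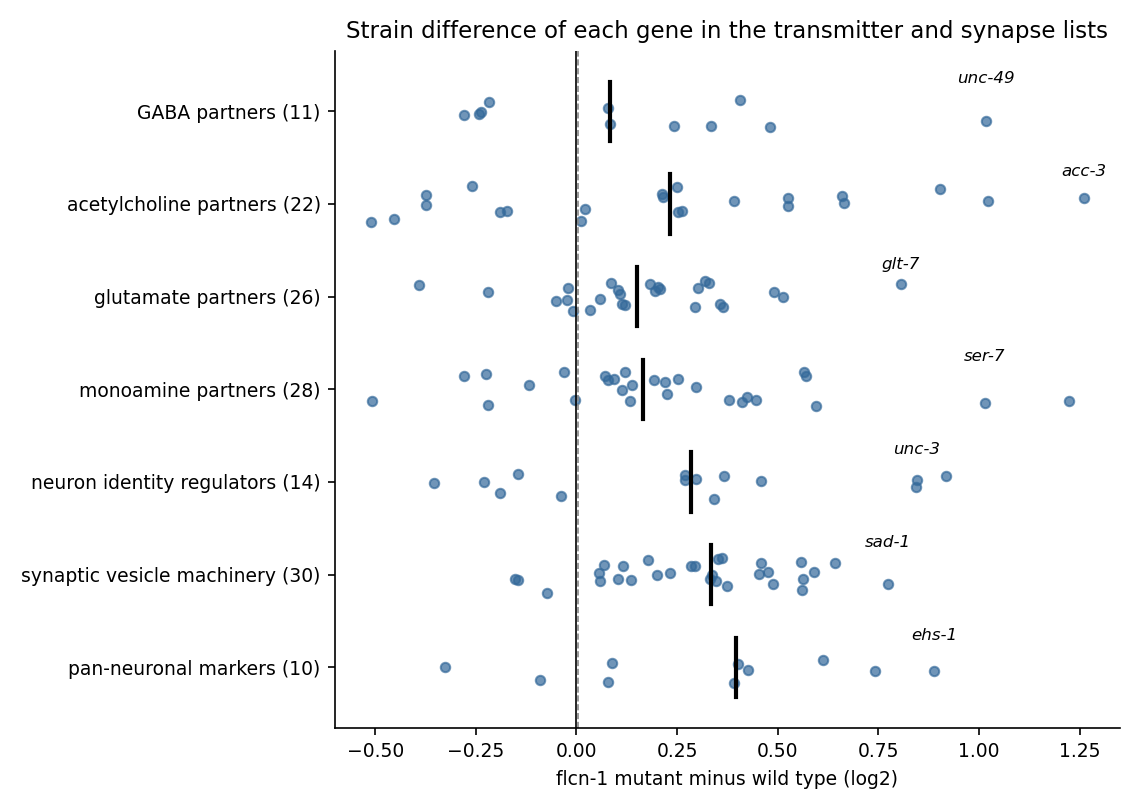
Difference between strains for each tested gene in the transmitter, regulator and synapse lists (log2, mutant minus wild type). Black bars are list medians, from 0.08 for GABA partners to 0.40 for pan-neuronal markers, the dashed line is the median of all features (0.00), and the gene with the smallest p in each list is named.

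General neuronal genes were examined beside the transmitter genes. Of 30 synaptic vesicle and release genes 27 were higher in the mutant, with a median of 0.33. Of 10 pan-neuronal markers 8 were higher, with a median of 0.40. Over all features 50.3% were higher and the median was 0.00. The vesicle count was 19 of 30 on slide 1, with a median of 0.14, and 23 of 30 without wild type 1, with a median of 0.25. The pan-neuronal median was 0.17, with 6 of 10 higher, without mutant 2 and 0.25 without wild type 3. None of the 40 passed the threshold by limma, against 0.101% of all features. None had an unadjusted limma p under 0.05, against 7.24% of all features. All 40 were well above background on all 6 arrays. The presynaptic kinase gene sad-1 differed by 0.77, the synapsin gene snn-1 by 0.64, and the active zone genes syd-1 and syd-2 by 0.46 and 0.49. Among pan-neuronal markers ehs-1, for an endocytic protein, differed by 0.89, the neuropeptide-processing genes egl-3 and egl-21 by 0.74 and 0.61, and unc-119 by 0.40. On slide 1 ehs-1 and egl-3 differed by 0.01 and -0.22, and on slide 2 by 1.33 and 1.22. The vesicle and pan-neuronal genes named here have the smallest p in their lists. In those lists 3 of 30 and 2 of 10 were lower in the mutant, down to -0.15 and -0.33. The neuron identity regulators, transcription factors that shape the identity of kinds of neuron, had 9 of 14 higher and a median of 0.28. Over the 8 of them above background on all arrays, 4 were higher and the median was 0.08, and over all 14 it was 0.51 without mutant 1 and 0.45 without wild type 2. Of these, unc-3, which specifies cholinergic motor neurons, differed by 0.85, unc-42 by 0.92, ttx-1 by 0.84 and ceh-43, a regulator of dopamine neurons, by 0.46 (limma adjusted p from 0.650 to 0.654). These regulators are named for the smallest p in the list, where 5 of 14 were lower, down to -0.35 for ceh-14. The genes unc-42 and ttx-1 were above background on 2 wild type arrays. On slide 1 unc-3 and unc-42 differed by 0.15 and 0.17, and on slide 2 by 1.20 and 1.29.

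Taken array by array, the median deviation of the 8 transmitter genes from their own 6-array means was -0.21 to 0.01 in wild type animals. On the mutant arrays it was 0.15 to 0.27. These medians include unc-30, whose brightest probe entered through the mutant arrays, so no strain difference is read from their lack of overlap. For the synaptic vesicle list the median deviation was -0.18, -0.06 and -0.29 against -0.04, 0.28 and 0.24. For the pan-neuronal list it was -0.25, 0.11 and -0.50 against -0.09, 0.54 and 0.03, where the strains overlapped. On slides 1 and 2 the median difference was 0.12 and 0.54 for the GABA genes, with unc-30 included. For the monoamine genes it was 0.70 and 0.01, for the vesicle list 0.14 and 0.31, and for the pan-neuronal list 0.04 and 0.53.

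**Figure D4:**
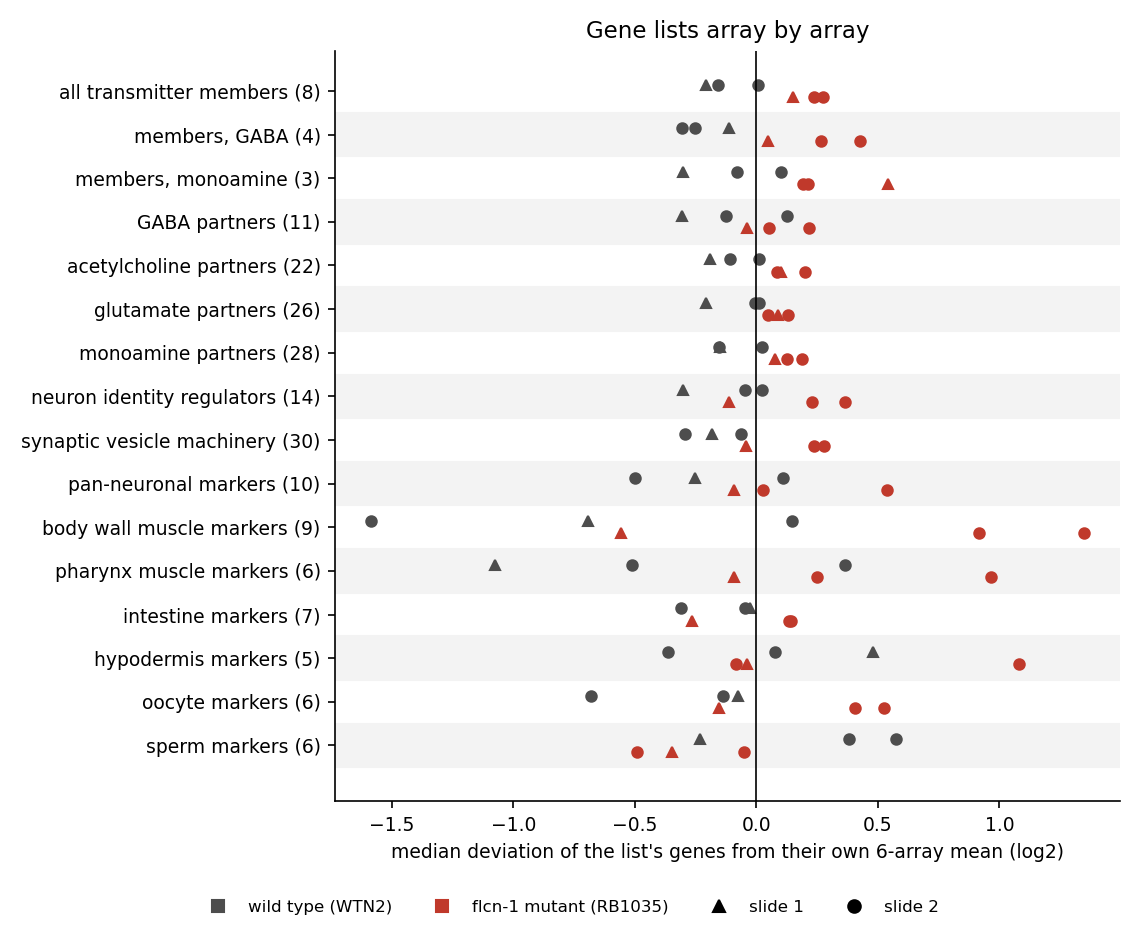
Median deviation of each list's genes from their own 6-array mean on each array (log2; number of tested genes in brackets). Grey is wild type, red mutant, triangles slide 1 and circles slide 2. The medians of all 8 transmitter genes and of the GABA and monoamine genes stay between -0.31 and 0.54, while body wall muscle markers run from -1.59 to 1.35.

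Markers of other tissues were followed on the same arrays. Every oocyte marker of 6 was higher in the mutant by the mean (median 0.54), 5 of 6 sperm markers were lower (median -0.50), and pharynx muscle markers had a median of 0.76. Intestine markers had a median of 0.07, which was -0.14 on slide 1. Hypodermis markers had a median of 0.25, which was -0.62 on slide 1 and 0.55 on slide 2. No marker passed the threshold by limma. Over all features 0.101% passed it and 50.3% had a higher mean in the mutant. On slide 2 the oocyte median difference was 0.88 and on slide 1 it was -0.09. The sperm median was -0.93 on slide 2 and 0.13 on slide 1, where 3 of 6 were higher, and -0.77 without wild type 1. The pharynx muscle median was 0.41, with 3 of 6 higher, without wild type 1, 0.47 without mutant 2 and 1.19 without wild type 2. The glia list had 2 tested members and is not described further. The part of tissue proportions in the transmitter gene values was not tested.

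Finally, genes whose levels over the 6 arrays ran most like those of a transmitter gene were listed among 15555 named genes, as a description. For unc-25 these were snt-7, lgc-28 and tat-5 (Pearson's r across arrays of 0.998, 0.997 and 0.993). For eat-4 they were sra-28, nhr-102 and nas-21 (0.998, 0.992 and 0.987), and for cat-2 H39E23.3, dlhd-1 and ndg-4 (0.986, 0.981 and 0.976). All of these points share the same 6 arrays. Among the transmitter genes themselves, leaving out unc-30, unc-25 ran most like cat-2 (0.77) and unc-46 most like tdc-1 (0.87).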

How the data were processed

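Processed signal intensity values were taken from the deposited scanner files. Per the file headers, Agilent Feature Extraction 10.7.3.1 produced them after spatial background subtraction and division by a multiplicative surface, which was not applied on mutant 2, with no normalization between arrays and against a design of build ce4. The deposited series table holds log2 values, by a method not given in the sources used here, with medians of 7.61 or 7.62 on each array. Within an array it ranked probes like the median signal of the spots (rho of 0.994 to 0.998 over probes), so its direction is that of the signal, and how it was normalized or centred stays unknown. It served as an alternative. Control spots (1417 of 45220) and 149 probes with an outlier flag were left out. No spot was saturated. Copies of a probe were averaged. A probe was kept if 3 or more of the 6 arrays showed it well above background (31224 kept). Names came from the WBcel235 gene table: 30975 probes matched by sequence name and 3342 by accession, 1077 kept the array's sequence name and 8209 stayed unnamed. Builds differ, so no coordinates are given.

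The 75th percentile of each array was subtracted and limma 3.58.1 in R 4.3.3 was run over the whole table, without replicate number or slide in the model. The procedure was tested on simulated data. The members and lists were chosen with earlier results of these data known. Named are all members, flcn-1, up to 4 genes with the smallest p in each transmitter, regulator, vesicle and pan-neuronal list, and the 3 genes most like unc-25, eat-4 and cat-2 over the arrays. Further genes of shared steps (cat-1, cat-4, bas-1, tbh-1, dat-1 and cho-1) were added after their values were seen. Alternatives were normexp (offset 50), quantile normalization, median centring, 2 filters, the mean of a gene's probes, the series table, slide, replicate block and leaving out each array.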

Additional observations from a re-analysis of the deposited data

How the results depend on the processing

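Under the 17 alternatives no transmitter gene and none of the 28 named partner genes passed the threshold where a test was possible. The lowest adjusted p of a transmitter gene was 0.274. Only unc-25, unc-47 and cat-2 of the 8 genes kept their direction under all 17, with differences of 0.47 to 0.96, 0.17 to 0.40 and 0.48 to 0.70. Of all features, 20 passed in the main setting, 11 with normexp and 1 among probes well above background on all 6 arrays, and 17 to 20 when 1 array was left out. The cause was not tested. Normexp moved the median of all features to 0.18, and relative to it unc-25 differed by 0.44, unc-30 by 0.40, cat-2 by 0.51 and tdc-1 by -0.21. With normexp the sign turned for tdc-1 (-0.026), its second probe (0.17), unc-46 (0.32) and the other unc-46 probes (0.22, 0.38 and 0.35). With the series table it turned for eat-4 (-0.034), tph-1 (-0.033), tdc-1 (-0.011) and unc-46 (0.029). On slide 1 alone, a value with no test, it turned for unc-30 (-0.027), cat-4 (0.076), egl-3 (-0.22) and glt-1 (-0.034), and on slide 2 alone for eat-4 (-0.32), tph-1 (-0.25), unc-46 (0.047) and flcn-1 (0.25). Leaving out 1 array gave -0.31 to 0.20 for unc-46, -0.39 to 0.33 for eat-4, -0.056 to 0.52 for tph-1, -0.16 to 0.68 for tdc-1, -0.23 to 0.072 for flcn-1, -0.030 to 0.21 for bas-1 and -0.078 to 1.59 for cho-1. The GABA median was 0.22 with probes well above background on all 6 arrays, which drops unc-30. With unc-30 included it was 0.12 on slide 1. The monoamine median was 0.52 with normexp, -0.011 with the series table, 0.70 on slide 1, 0.015 on slide 2 and 0.089 to 0.58 when 1 array was left out. The GABA partner median turned to -0.052 without wild type 1. With the replicate block 30 features passed and no transmitter gene did (unc-25 adjusted p = 0.539). Deviations of same-numbered arrays correlated by 0.12, 0.12 and 0.02, and those of differently numbered arrays by -0.37 to 0.25. Whether the replicate numbers pair the samples was not tested. Dim signal limits unc-30 and tph-1.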
